A study of Mus musculus with 8 samples.

Results

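Transcripts of 83 transporter genes, encoding ATP-binding cassette (ABC) pumps and organic ion carriers, were followed in severely inflamed mouse colon. The genes were chosen by symbol, those starting with Abca (16 genes), Abcb (9), Abcc (10), Abcd (3), Abcg (6), Slc22a (24) and Slco (15) with a probe set assigned to that gene alone, of 30701 named genes on the array. Each of them had a single such probe set. All 8 mice were Rag1-/- on the C57BL/6 strain, so both groups lacked mature T and B cells of their own and kept their innate immune cells. The 5 controls (Treg-injected) had received regulatory T cells and their colons were labelled non-inflamed, and the other 3 mice (Naïve T-injected) had received naïve T cells and their colons were labelled severely inflamed. Cells were given at 10 weeks of age and tissue was taken 2 to 4 months afterwards, while the labelled age of every mouse was 4 to 5 months, which these times match only in part. The sources used here disagree on the tissue, distal colon in the sample protocol and a strip from cecum to rectum in the series design. Expression of many transporters is graded along the gut, so the region sampled limits what the levels stand for.

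ABC proteins use the energy of ATP to move substrates across membranes, most of them outward. In the gut, P-glycoprotein and the breast cancer resistance protein return drugs and plant compounds from the enterocyte to the lumen, the multidrug resistance-associated proteins export glutathione, glucuronide and sulfate conjugates, and ABCA1, ABCG1 and the ABCG5 and ABCG8 pair move cholesterol. SLC22 proteins carry organic cations, carnitine and organic anions, and SLCO proteins, the organic anion transporting polypeptides, take up bile salts, steroid and thyroid conjugates and prostaglandins. Many members of the last families act in kidney and liver, and nuclear receptors that sense drugs, sterols and bile acids control several of the pumps in the intestine.

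Values were RMA log2 intensities, made by the authors per the submitters' processing notes, and a difference is inflamed minus control, with its limma standard error (SE) after ±; group means carry the standard deviation (SD). A gene is said to have risen or fallen where the limma test, Benjamini-Hochberg adjusted over all 30701 genes, gave an adjusted p under 0.05, with n = 5 control and 3 inflamed arrays throughout. The labels call the replicates biological, and p-values rest on the spread between these arrays, pooled over both groups and moderated across genes by limma. Of the 20 transporter genes that passed, 15 had a larger SD in inflamed than in control arrays, among them Abcb1a (0.56 against 0.17). A pooled SE does not show this and can be too small where the smaller group varies more. The probe sets of different genes differ in their response, so values were compared between arrays and not between genes. Over all named genes, Pearson's r was 0.995 to 0.998 between controls, 0.988 to 0.995 between inflamed arrays and 0.979 to 0.985 across groups. Inflamed replicate 2 stood apart from the other inflamed arrays. Without it Abca9 and Slco5a1 passed as well, at differences of -0.18 and 0.14 (limma adjusted p = 0.0483 and 0.023). Abcb6 and Slc22a4 no longer passed without it. The median of all named genes was 5.67, and a gene under it in both groups is called dim, as Abca9 and Slco5a1 were. Probe sets for introns, which stand for background, lay at 4.92 to 5.11 by their median on each array. RMA compresses low signals, so differences of dim genes are understated. Since whole tissue was measured, fewer cells of a type and less RNA per cell cannot be told apart.

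Of the 83 transporter genes, 20 changed, 13 of them lower and 7 higher in inflamed colon, which is 24.1% against 13.1% of all named genes. Among all genes 5.04% fell and 8.06% rose. These shares are the background of every family and list count below, and those counts are descriptions of few genes without a set test. The fallen members were Abcb1a, Abcg2, Abcc2, Slco2a1, Slc22a23, Abca8a, Slco2b1, Abcb6, Abcb1b, Slc22a4, Abcc10, Abca3 and Abca8b, and the risen members were Abcc4, Abca13, Abcg3, Abca1, Abcg1, Abcc1 and Slco3a1. For all 20 the 3 inflamed values lay outside the range of the 5 controls, as they did for 28 members in all (33.7%, against 21.2% of all genes), 7 above the controls and 21 below (background 12.0% and 9.17%), and 12.9% of all genes both changed and did not overlap. Changes were modest, from 1.23-fold to 3.64-fold downward and from 1.2-fold to 2.37-fold upward, and only Abcb1a, Abcc4 and Abca13 changed at least 2-fold, as 2.37% of all genes did. Of the 39 members above the median of all genes in either group 16 changed (41.0%, against 22.8% of all genes above it), 6 upward and 10 downward (background 14.1% and 8.7%). A gene can enter this count through its higher group alone, as Abca13 did through inflamed colon and Slc22a4 through controls. The filter thus depends on the groups compared, and these shares are a description. Of the 44 dim members 4 changed. Among all genes 14846 were dim, and 3618 of the 4022 that changed were not dim. The median difference over the 83 members was -0.032, against -0.013 over all genes.

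**Figure D1:**
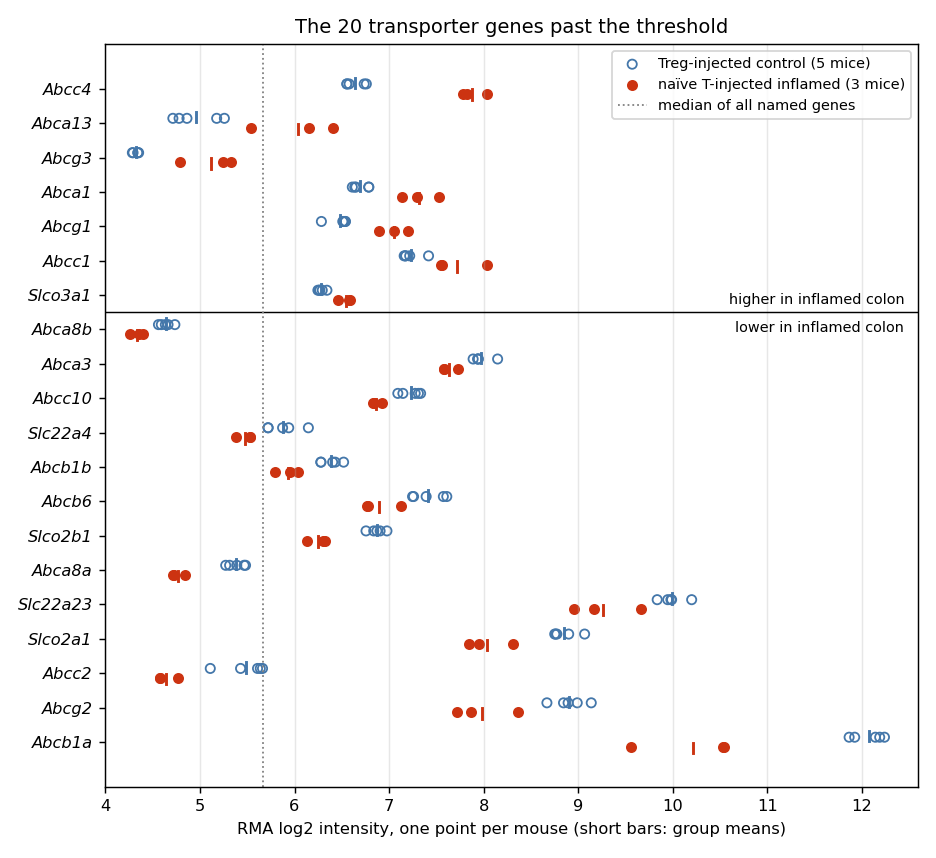
RMA log2 intensity (x axis) of the 20 transporter genes past the threshold, with 1 point per mouse, 5 open control points and 3 filled inflamed points per gene, and short bars for group means. In every row the filled points lie entirely on the right or entirely on the left of the open points, 7 rows on the right and 13 on the left.

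The largest fall among the 83 genes was that of the drug efflux pump P-glycoprotein. In mice it is encoded by Abcb1a and Abcb1b, and Abcb1a, the intestinal form, was at 12.19, 11.93, 11.87, 12.14 and 12.24 on controls 1 to 5 and at 10.54, 10.53 and 9.56 on inflamed replicates 1 to 3. All inflamed values were lower than every control, with replicate 3 the lowest. Abcb1a thus fell by 1.86 ± 0.23 on the log2 scale, 3.64-fold (limma adjusted p = 0.00305). Without inflamed replicate 3 the difference was -1.54. Abcb1b, found mainly in other tissues, was at 6.4, 6.28, 6.28, 6.43 and 6.52 in controls and at 6.03, 5.79 and 5.96 in inflamed colon. It fell by 0.45 ± 0.076 (limma adjusted p = 0.00914), with the lowest value on inflamed replicate 2. Abcb4, the neighbouring gene of the same kind and the phosphatidylcholine exporter of bile, differed by -0.14 ± 0.055 (limma adjusted p = 0.142) at dim levels of 4.64 ± 0.057 in controls and 4.5 ± 0.11 in inflamed colon. Abcb1a and Abcb1b are close paralogs, and whether their probes share signal was not tested.

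The breast cancer resistance protein gene Abcg2, whose product exports drugs, urate and sulfate conjugates, fell as well. Its values were 8.99, 8.67, 8.89, 9.14 and 8.85 on the control arrays and 7.87, 8.36 and 7.72 on the inflamed arrays, so the groups did not overlap and inflamed replicate 2 lay closest to the controls. Abcg2 fell by 0.92 ± 0.16, or 1.9-fold (limma adjusted p = 0.0105). Abcg3, a close mouse relative of Abcg2, was dim on all arrays, at 4.29, 4.35, 4.34, 4.29 and 4.34 in controls and 5.24, 5.33 and 4.79 in inflamed colon, and rose by 0.80 ± 0.11 (limma adjusted p = 0.00508). Its control values and inflamed replicate 3 lay under the medians of the intron probe sets, so its level there is not above background.

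The upstream sequences of the P-glycoprotein genes, of the largest rise (Abcc4) and of the prostaglandin carrier gene Slco2a1 are shown to set the genes that the results turn on side by side. They are the 250 bases before the outermost start in the table of RefSeq promoters used here, 5′ to 3′ on the gene's strand, from RefSeq in build GRCm38.p6. Capitals mark matches on either strand to TATAAA (the TATA box), CCAAT (the CCAAT box), GGGCGG (the GC box), AGGTCA (the core many nuclear receptors bind), TGANTCA (Fos and Jun), GCGTG (the dioxin receptor), TTCNNNGAA (STAT factors), GTTAAT (the hepatocyte nuclear factor) and TTTATG (CDX factors). No motif's letters lie inside another's, and overlapping matches were each counted. The windows are chr5:8566841-8567090 on the plus strand for Abcb1a, chr5:8797897-8798146 on the plus strand for Abcb1b, chr9:103008237-103008486 on the plus strand for Slco2a1 and chr14:118706220-118706469 on the minus strand for Abcc4. The RefSeq gene bounds of Slco2a1 and Abcc4 reach further upstream than these starts.
Abcb1a: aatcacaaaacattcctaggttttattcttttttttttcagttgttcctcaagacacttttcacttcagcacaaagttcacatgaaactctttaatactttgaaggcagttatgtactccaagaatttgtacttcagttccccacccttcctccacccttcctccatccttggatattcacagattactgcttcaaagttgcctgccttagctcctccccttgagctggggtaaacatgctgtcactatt
Abcb1b: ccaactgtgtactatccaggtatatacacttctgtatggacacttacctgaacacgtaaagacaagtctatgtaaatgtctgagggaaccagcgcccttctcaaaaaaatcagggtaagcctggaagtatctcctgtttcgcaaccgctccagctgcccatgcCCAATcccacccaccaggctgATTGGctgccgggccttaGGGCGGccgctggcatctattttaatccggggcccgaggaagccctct
Slco2a1: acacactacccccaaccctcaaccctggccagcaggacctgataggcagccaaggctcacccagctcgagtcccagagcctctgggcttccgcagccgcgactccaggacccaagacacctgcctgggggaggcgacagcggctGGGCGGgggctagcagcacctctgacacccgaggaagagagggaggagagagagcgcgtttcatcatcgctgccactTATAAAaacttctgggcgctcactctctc
Abcc4: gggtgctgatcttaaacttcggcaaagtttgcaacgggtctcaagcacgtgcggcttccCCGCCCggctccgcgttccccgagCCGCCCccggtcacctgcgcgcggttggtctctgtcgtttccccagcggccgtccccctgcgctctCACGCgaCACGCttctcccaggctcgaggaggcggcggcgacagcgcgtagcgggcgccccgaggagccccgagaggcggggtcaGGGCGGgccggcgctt
The window of Abcb1a held none of the 9 letter strings and no CG dinucleotide, with a GC content of 40.4%, while that of its paralog Abcb1b held 9 CG dinucleotides, the CCAAT letters on each strand and the GC box, with 52.8% of its bases G or C. The Abcc4 window, with 35 CG dinucleotides and a GC content of 72.0%, held GGGCGG or its reverse complement 3 times and the reverse complement of GCGTG in 2 places. In the Slco2a1 window TATAAA began at position -29, counted from the start, and GGGCGG at -106. The median GC content of all 27025 windows of the same length was 52.0%, and 33.0% of them held GGGCGG, 34.5% CCAAT, 13.0% TATAAA and 28.3% GCGTG. Windows were found for 68 members, 17 of which had changed. AGGTCA was present in 4 of the 13 windows of fallen members (Abcb6, Abcc2, Abcc10 and Abcg2), 0 of 4 of risen members and 5 of 51 of the others, against 13.8% of all windows. The letters of the GC box were present in 8 of the 13, 3 of the 4 and 10 of the 51. In the same order the counts were 3, 1 and 15 for CCAAT, 2, 1 and 5 for TATAAA, and 2, 2 and 11 for GCGTG. For TTTATG they were 0, 2 (Abca1 and Abca13) and 4. TGANTCA was in 0, 0 and 0 windows, TTCNNNGAA in 0, 0 and 6, and GTTAAT in 0, 0 and 4. Whether any motif goes with the calls was not tested. Of all windows, 6.85% held TGANTCA, 7.14% TTCNNNGAA, 6.54% GTTAAT and 11.1% TTTATG.

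The conjugate exporters of the Abcc subfamily split, with 2 members higher and 2 lower of 10 (8.06% and 5.04% of all genes). Abcc4, the multidrug resistance-associated protein that exports cyclic nucleotides, prostaglandins and conjugated steroids, was at 6.55, 6.76, 6.74, 6.56 and 6.58 in controls and 8.04, 7.83 and 7.78 in inflamed colon. All inflamed values lay over a log2 unit above every control. Abcc4 rose by 1.25 ± 0.079, or 2.37-fold (limma adjusted p = 0.00027). Abcc1, a basolateral exporter of glutathione conjugates and leukotriene C, was at 7.16, 7.22, 7.42, 7.18 and 7.17 in controls and 8.03, 7.55 and 7.56 in inflamed colon, with replicate 1 above the other inflamed arrays. It rose by 0.49 ± 0.12 (limma adjusted p = 0.0401), which was lost when control 1, 2, 4 or 5 or inflamed replicate 1 was left out, at an adjusted p of 0.0519 to 0.0921.

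Abcc2, the apical counterpart that secretes glucuronides and glutathione conjugates, was dim, at 5.64, 5.11, 5.61, 5.43 and 5.66 in controls and 4.77, 4.57 and 4.58 in inflamed colon, and fell by 0.85 ± 0.13 (limma adjusted p = 0.00712). Its inflamed values lay under the medians of the intron probe sets. Abcc10, a broad drug exporter, fell by 0.37 ± 0.064 (limma adjusted p = 0.0105), from 7.23 ± 0.11 to 6.86 ± 0.051. Abcc3, the basolateral exporter of glucuronides and bile salts, had values of 10.24, 10.14, 10.34, 10.07 and 9.94 in controls and 9.82, 9.79 and 9.12 in inflamed colon. The groups did not overlap, inflamed replicate 3 was lowest, and the difference of -0.57 ± 0.17 did not pass (limma adjusted p = 0.0745). Abcc6 differed by -0.25 ± 0.07 (limma adjusted p = 0.0623) and Abcc5, an exporter of cyclic nucleotides, by 0.0091 ± 0.041 (limma adjusted p = 0.909). Abcc8 and Abcc9, which are regulatory subunits of ATP-sensitive potassium channels and not pumps, differed by 0.15 ± 0.054 (limma adjusted p = 0.123) and 0.026 ± 0.12 (limma adjusted p = 0.913).

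**Figure D2:**
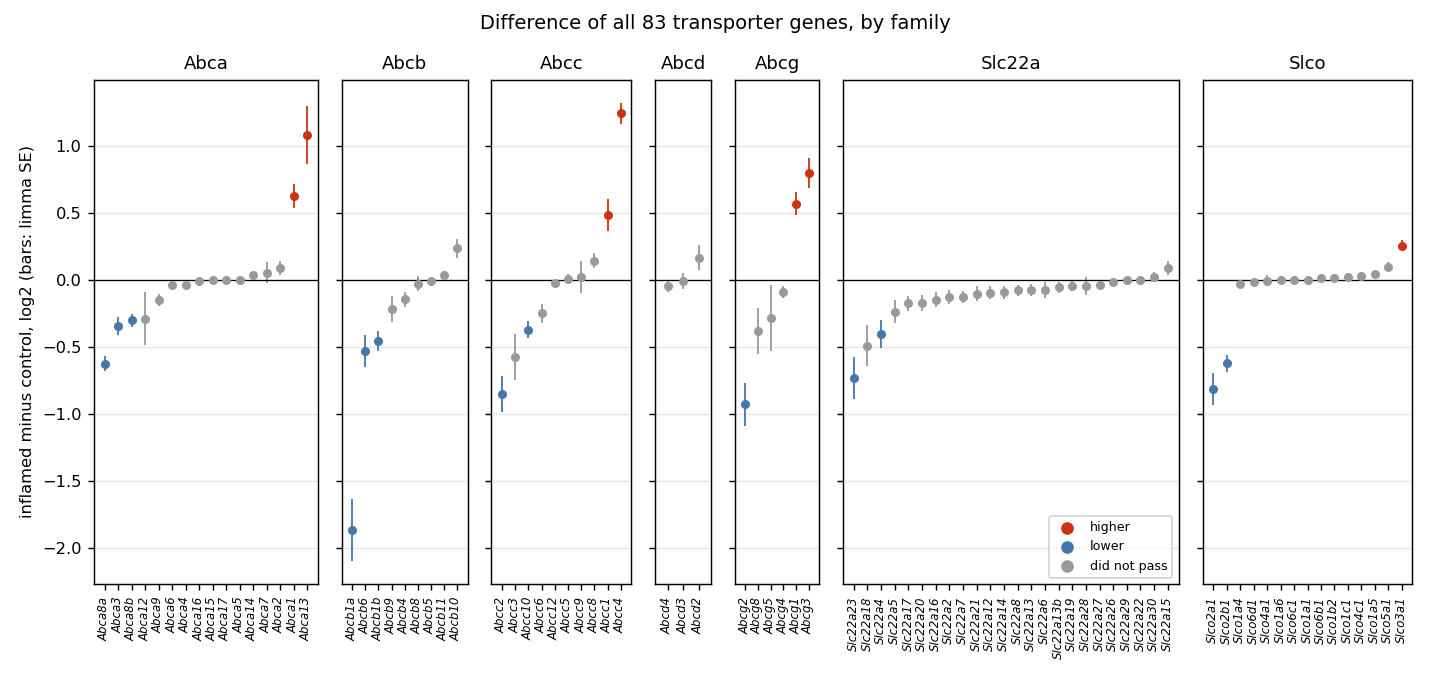
Inflamed minus control log2 difference (y axis, with the limma SE as bars) of all 83 transporter genes, in panels by family and ordered by difference, coloured by whether the gene rose, fell or did not pass. Most Slc22a and Slco points sit close to 0, while the Abcc and Abcg panels hold both risen and fallen genes and the Abcb panel holds the lowest value of all, -1.86 for Abcb1a.

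Among the sterol transporters, the exporters to lipoproteins rose while the intestinal ABCG5 and ABCG8 genes did not pass the test. Abca1, which loads cholesterol and phospholipid onto apolipoprotein A-I and is a liver X receptor target, was at 6.79, 6.65, 6.61, 6.64 and 6.79 in controls and 7.3, 7.13 and 7.52 in inflamed colon, and rose by 0.63 ± 0.09, 1.54-fold (limma adjusted p = 0.00513). Abcg1, which passes cholesterol to high-density lipoprotein and is also abundant in macrophages, was at 6.52, 6.54, 6.28, 6.51 and 6.54 in controls and 7.06, 6.89 and 7.2 in inflamed colon. It rose by 0.57 ± 0.086 (limma adjusted p = 0.00604). For both genes inflamed replicate 3 was highest and replicate 2 lowest of the inflamed arrays. The macrophage marker list rose with them, 9 of its 10 genes, and its mean log2 level went from 6.47 to 6.67 on controls to 7.90 to 8.04 on inflamed arrays; its part in the rise of Abca1 and Abcg1 was not tested.

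Abcg5 and Abcg8 encode the partners that return sterols to the gut lumen. Abcg5 was at 7.13, 6.57, 6.57, 6.27 and 7.14 in controls and 6.13, 6.84 and 6.39 in inflamed colon, and Abcg8 at 6.72, 6.24, 6.1, 6.06 and 6.54 and 5.73, 6.1 and 6.03. The groups overlapped for both genes, which were highest on controls 1 and 5, and the differences were -0.28 ± 0.25 (limma adjusted p = 0.485) and -0.38 ± 0.17 (limma adjusted p = 0.201). Of the 11 measured genes of a sterol partner list, 1 rose and 2 fell, with a median difference of -0.0078 against -0.013 over all genes. Apoe, a lipid acceptor made by macrophages, rose by 0.65 ± 0.086 (limma adjusted p = 0.00367). Apob, the structural apolipoprotein of chylomicrons, fell by 1.66 ± 0.27 (limma adjusted p = 0.00886), and Mylip, a ubiquitin ligase that degrades the lipoprotein receptor, fell by 0.35 ± 0.046 (limma adjusted p = 0.00353).

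Among the other Abca genes 1 rose and 3 fell. Abca13, a very large member of the subfamily, was at 5.26, 5.18, 4.71, 4.78 and 4.86 in controls and 6.16, 5.54 and 6.41 in inflamed colon and rose by 1.08 ± 0.22, or 2.11-fold (limma adjusted p = 0.0186), from a dim control level. It did not pass when inflamed replicate 1 or 3 was left out, at an adjusted p of 0.0507 to 0.0717, and with low values set to the median of all genes the difference was 0.41 (limma adjusted p = 0.197). Abca3, the lipid transporter of lung surfactant, was at 7.94, 7.94, 8.15, 7.94 and 7.89 in controls and 7.58, 7.73 and 7.58 in inflamed colon and fell by 0.34 ± 0.066 (limma adjusted p = 0.0159), and leaving out the same arrays brought an adjusted p of 0.0507 to 0.0634. Abca8a fell by 0.62 ± 0.059 (limma adjusted p = 0.00113) and Abca8b fell by 0.30 ± 0.049 (limma adjusted p = 0.00827), both dim in both groups, at 5.38 ± 0.092 and 4.64 ± 0.067 in controls and 4.76 ± 0.066 and 4.34 ± 0.069 in inflamed colon. All values of Abca8b and the inflamed values of Abca8a lay under the medians of the intron probe sets, so they are not above background. Abca12, the glucosylceramide transporter of skin, differed by -0.29 ± 0.20 (limma adjusted p = 0.384) between overlapping groups, and Abca7 and Abca2 by 0.057 ± 0.076 (limma adjusted p = 0.652) and 0.09 ± 0.052 (limma adjusted p = 0.304).

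Of the measured pumps of intracellular membranes (Abcb6, Abcb8, Abcb9, Abcb10 and the Abcd genes), Abcb6 changed and the others did not pass. Abcb6, a porphyrin transporter, was at 7.57, 7.39, 7.61, 7.26 and 7.25 in controls and 7.13, 6.77 and 6.78 in inflamed colon and fell by 0.53 ± 0.12 (limma adjusted p = 0.0311). It no longer passed when control 1, 2 or 3 or inflamed replicate 2 or 3 was dropped, at an adjusted p of 0.0606 to 0.0899. The mitochondrial genes Abcb8 and Abcb10 differed by -0.028 ± 0.056 (limma adjusted p = 0.777) and 0.24 ± 0.073 (limma adjusted p = 0.078), and the lysosomal peptide transporter gene Abcb9 by -0.21 ± 0.097 (limma adjusted p = 0.2). None of the 3 Abcd genes passed. Abcd3, which brings fatty acids into peroxisomes, was at 10.34, 10.12, 10.2, 10.15 and 10.15 in controls and 10.24, 10.23 and 10.1 in inflamed colon, a difference of -0.0056 ± 0.06 (limma adjusted p = 0.966), and Abcd4, which serves the release of cobalamin from lysosomes, differed by -0.044 ± 0.045 (limma adjusted p = 0.549). The sign of Abcd3 changed with the scaling and with single arrays left out, and that of Abcd4 without inflamed replicate 2.

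Among the organic cation and anion carriers of the Slc22a family, 2 of 24 fell and 0 rose, where 5.04% of all genes fell and 8.06% rose. At an unadjusted p under 0.05 in the limma fit were 9 of the 24 (37.5%, against 28.5% of all genes and 41.0% of the 83 members). Slc22a23, a carrier with no settled substrate, was at 10.2, 9.99, 9.95, 9.98 and 9.84 in controls and 9.17, 9.66 and 8.96 in inflamed colon, with inflamed replicate 2 closest to the controls, and fell by 0.73 ± 0.16 (limma adjusted p = 0.0239). It did not pass when control 1, 2, 3 or 4 or inflamed replicate 1 or 3 was dropped, at an adjusted p of 0.0502 to 0.0871. Slc22a4, the ergothioneine carrier gene, was at 5.94, 5.72, 6.15, 5.72 and 5.87 in controls and 5.52, 5.38 and 5.53 in inflamed colon and fell by 0.40 ± 0.10 (limma adjusted p = 0.0438), and it passed with all arrays or without control 3 but not when any other array was dropped, where the adjusted p was 0.0504 to 0.116. With the Xist pattern, which marks sex, as a block, the Slc22a4 and Abcc1 calls ended as well, and the other 18 calls held.

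Slc22a5, the high-affinity carnitine carrier, was at 8.25, 7.89, 7.97, 8.14 and 7.97 in controls and 7.79, 7.87 and 7.77 in inflamed colon, where the groups did not overlap, and its difference of -0.23 ± 0.084 did not pass (limma adjusted p = 0.117). Slc22a18, an imprinted gene, was at 8.98, 8.66, 8.66, 8.43 and 8.37 and 8.08, 8.37 and 7.95. Its highest inflamed value equalled the lowest control to 2 decimals, and the difference was -0.49 ± 0.15 (limma adjusted p = 0.084). The carnitine carrier gene Slc22a21 differed by -0.10 ± 0.055 (limma adjusted p = 0.276), and the iron-siderophore receptor gene Slc22a17 by -0.17 ± 0.056 (limma adjusted p = 0.0898). The renal carriers of organic cations and anions were dim: Slc22a2 was at 4.8 ± 0.088 in controls and 4.68 ± 0.034 in inflamed colon, Slc22a6 at 5.31 ± 0.10 and 5.24 ± 0.022, and Slc22a8 at 4.59 ± 0.023 and 4.52 ± 0.092. In all, 15 of the 24 Slc22a genes were under the median of all genes in both groups.

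Of the 15 Slco genes 2 fell and 1 rose (5.04% and 8.06% of all genes), and 11 were dim in both groups. Slco2a1, the carrier that takes prostaglandins out of the extracellular space for breakdown, was at 9.07, 8.75, 8.76, 8.78 and 8.9 in controls and 7.85, 8.31 and 7.95 in inflamed colon. All inflamed values lay under the controls, and Slco2a1 fell by 0.81 ± 0.12, 1.76-fold (limma adjusted p = 0.00565). Slco2b1, a carrier of steroid sulfates and many oral drugs, was at 6.98, 6.91, 6.87, 6.76 and 6.84 in controls and 6.3, 6.33 and 6.13 in inflamed colon and fell by 0.62 ± 0.063 (limma adjusted p = 0.00143). Slco3a1, a widely expressed carrier of prostaglandins and thyroid hormone, was at 6.29, 6.25, 6.26, 6.34 and 6.27 and 6.59, 6.58 and 6.46, a small rise with little spread, and rose by 0.26 ± 0.039 (limma adjusted p = 0.00596). Slco4a1 was at 6.14 ± 0.059 in controls and 6.14 ± 0.016 in inflamed colon, a difference of -0.0025 ± 0.038 (limma adjusted p = 0.978) whose sign changed with the scaling. The hepatic and renal genes were dim, among them Slco1b2 at 3.24 ± 0.0052 and 3.25 ± 0.021 and Slco1a1 at 3.15 ± 0.0047 and 3.15 ± 0.0044.

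Genes on both sides of prostaglandin transport could be set beside Slco2a1 and Abcc4, which is the exporter. Of the 5 measured genes of a prostaglandin list 1 fell and 0 rose, though 2 (Ptgs2 and Ptges) rose with equal array medians or with only genes above the median tested, and 1 with quantile normalization, array weights or the Xist block. Hpgd, the dehydrogenase that inactivates prostaglandins after uptake, was at 11.01, 10.82, 11.02, 10.9 and 10.91 in controls and 9.34, 10.05 and 9.04 in inflamed colon and fell by 1.46 ± 0.20, 2.75-fold (limma adjusted p = 0.00468). Ptgs2, the inducible cyclooxygenase, had 6.15, 5.89, 5.96, 6.17 and 5.93 in controls and 6.83, 7.21 and 9.31 in inflamed colon, non-overlapping but spread over more than 2 log2 units in inflamed colon, and a difference of 1.76 ± 0.51 that did not pass (limma adjusted p = 0.0658). Ptgs2 passed without inflamed replicate 1 or 3, at an adjusted p of 0.0487 and 0.00733, and Ptges without inflamed replicate 2, at 0.0194. The Ptges and Ptger4 differences were 0.47 ± 0.14 (limma adjusted p = 0.0721) and -0.24 ± 0.12 (limma adjusted p = 0.247).

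**Figure D3:**
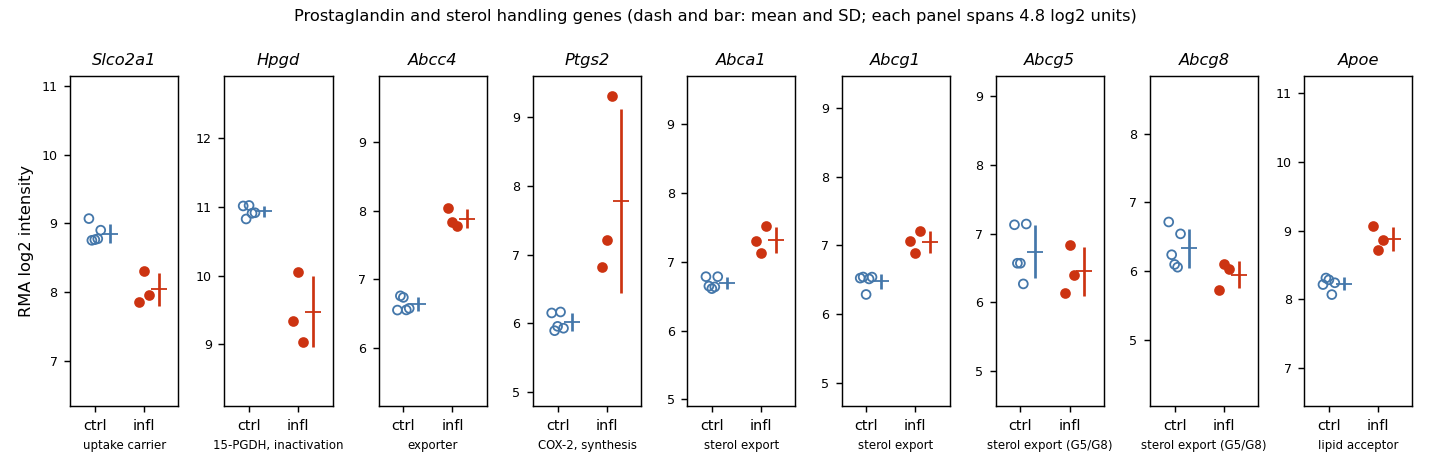
RMA log2 intensity (y axis, each panel spanning the same number of log2 units) of prostaglandin and sterol handling genes, with open points for the 5 control mice, filled points for the 3 inflamed mice, and a dash and bar for mean and SD. The uptake gene Slco2a1 and Hpgd are lower and the exporter gene Abcc4 higher in inflamed colon without overlap, as are Abca1, Abcg1 and Apoe upward, while the points of Abcg5 and Abcg8 overlap.

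Transcription factors that control transporters fell or did not pass. Of the 19 measured genes of that list 7 fell and 0 rose, with a median difference of -0.20. Ppara, the fatty acid sensor, fell by 1.42 ± 0.11 (limma adjusted p = 0.000507), Vdr, the vitamin D receptor, fell by 1.14 ± 0.17 (limma adjusted p = 0.00603), and the intestinal homeobox gene Cdx1 fell by 0.51 ± 0.099 (limma adjusted p = 0.0164). Nr1i2, the pregnane X receptor, which drives Abcb1a in the gut, was at 8.83, 8.58, 8.91, 8.62 and 8.57 in controls and 8.37, 8.33 and 8.31 in inflamed colon, and fell by 0.36 ± 0.087 (limma adjusted p = 0.0349), a call lost when control 1 or 4 or any inflamed array was dropped, at an adjusted p of 0.0596 to 0.0904. Nr1h3, the liver X receptor alpha gene, differed by -0.14 ± 0.082 (limma adjusted p = 0.326) and Ahr, the receptor for aromatic compounds, by 0.044 ± 0.038 (limma adjusted p = 0.476). The number of fallen genes was 4 without control 1, control 4 or inflamed replicate 3 and 2 without inflamed replicate 1, and Cdx1 did not pass when inflamed replicate 1 or 3 was dropped, at an adjusted p of 0.0651 and 0.053.

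Of 7 ABC genes whose symbols fall outside the names above, among them Tap1, Tap2 and Cftr of the Abcb and Abcc subfamilies, 4 rose and 0 fell, with a median difference of 0.58. Tap1 and Tap2, the peptide transporter of antigen presentation, rose by 1.26 ± 0.24 (limma adjusted p = 0.0153) and by 0.58 ± 0.14 (limma adjusted p = 0.036), and the translation factors Abcf2 and Abce1, which are no transporters, rose by 0.67 ± 0.086 (limma adjusted p = 0.00322) and by 0.67 ± 0.16 (limma adjusted p = 0.0328). The count was 2 without control 2, 3, 4 or 5 and 1 without inflamed replicate 1, and 5 rose and 1 fell without inflamed replicate 2. Leaving out inflamed replicate 1 brought Tap1 to an adjusted p of 0.0627. Abce1 was lost when control 2, 3, 4 or 5 or inflamed replicate 1 was dropped, at 0.0606 to 0.0789, and Tap2 when any array but inflamed replicate 2 was, at 0.0549 to 0.0976. Cftr, a chloride channel, was at 9.23, 9.48, 9.45, 9.49 and 9.4 in controls and 8.32, 9.23 and 8.18 in inflamed colon, a difference of -0.83 ± 0.23 (limma adjusted p = 0.0524), and without inflamed replicate 2 it fell by 1.16 with an adjusted p of 0.00113.

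Among 20 other carriers of drugs, bile acids, nucleosides and vitamins, 3 fell and 1 rose, with a median difference of -0.10. Slc28a3, a concentrative nucleoside carrier, was at 6.05, 6.04, 5.83, 5.87 and 6.43 in controls and 8.67, 9.0 and 8.15 in inflamed colon and rose by 2.57 ± 0.21, 5.92-fold (limma adjusted p = 0.000637). Slc51a, a subunit of the basolateral bile acid and steroid exporter, fell by 1.5 ± 0.22 (limma adjusted p = 0.00598). Slc51b, its partner subunit, differed by 0.34 ± 0.17 between overlapping groups and did not pass (limma adjusted p = 0.232). Slc10a2, the apical bile acid carrier, fell by 0.95 ± 0.17 (limma adjusted p = 0.0128), and Slc47a1, an exporter of organic cations, fell by 0.31 ± 0.061 (limma adjusted p = 0.0185). Without inflamed replicate 1 the list held 1 fallen gene, with Slc10a2 at an adjusted p of 0.0516 and Slc47a1 at 0.0559. Of the 7 scaffold genes that hold transporters at the membrane, 2 fell and 1 rose, with a median difference of -0.054. Slc9a3r1 and Slc9a3r2 fell by 0.42 ± 0.086 (limma adjusted p = 0.0197) and by 0.41 ± 0.083 (limma adjusted p = 0.0195), and Msn, the moesin gene of leukocytes and endothelium, rose by 1.08 ± 0.10 (limma adjusted p = 0.00117). Neither fall passed when inflamed replicate 1 was dropped, at an adjusted p of 0.0563 and 0.0744. Slc9a3r1 was lost without replicate 2 as well, at 0.0552, and Slc9a3r2 without replicate 3, at 0.0544, while Rdx rose too without control 5.

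Markers of the cells in the tissue moved with the transporter changes in part. Of 12 colonocyte markers 4 fell and 1 rose, with a median difference of -0.014 and a list mean of 11.84 to 12.04 on controls and 11.41 to 11.79 on inflamed arrays. The fallen markers were Aqp8, Guca2a, Slc26a3 and Car1. Aqp8 fell by 2.15 ± 0.41, Guca2a fell by 1.23 ± 0.19, Slc26a3 fell by 1.3 ± 0.32 and Car1 fell by 0.29 ± 0.055, while Krt20 rose by 0.58 ± 0.12. Slc26a3 lost its call when control 2 to 5 or inflamed replicate 1 or 3 was dropped, at an adjusted p of 0.0725 to 0.134, and Krt20 its call without control 2 or 5 or inflamed replicate 1 or 2, at 0.0502 to 0.0538. Markers of all epithelial cells did not pass, with differences of -0.0052 ± 0.032 for Epcam (limma adjusted p = 0.938), 0.059 ± 0.076 for Vil1 (limma adjusted p = 0.638), 0.10 ± 0.048 for Krt8 (limma adjusted p = 0.204) and 0.25 ± 0.076 for Cdh17 (limma adjusted p = 0.0698), which passed without inflamed replicate 1, at 0.33 and an adjusted p of 0.0379. Epcam was at 12.19, 12.22, 12.26, 12.29 and 12.22 in controls and 12.22, 12.28 and 12.2 in inflamed colon, and the groups overlapped.

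Of 6 goblet cell markers 2 fell and 0 rose (list mean 11.65 to 12.0 on controls, 11.15 to 11.51 on inflamed arrays), and of 6 smooth muscle markers 5 fell and 0 rose (10.95 to 11.49 and 10.43 to 10.57). Leukocyte markers were higher: 9 of 10 macrophage genes, 4 of 7 neutrophil genes (5.03 to 5.32 and 7.06 to 9.0) and 6 of 6 T cell genes (5.28 to 5.45 and 6.64 to 7.61) rose and 0 fell. None of 7 endothelial markers passed in the limma test (5.78 to 5.86 and 5.71 to 5.87), and of 5 fibroblast markers 1, Pdpn, rose (7.48 to 7.91 and 7.69 to 8.19). Of 5 markers of enteric neurons and glia 1 fell (5.54 to 5.7 and 5.36 to 5.48). The fibroblast rise was lost without any array but inflamed replicate 1, and the neuronal fall (Uchl1) without control 2, 4 or 5 or inflamed replicate 1 or 2. The goblet list held 1 fallen gene without inflamed replicate 1. Of the macrophage list, Mrc1 lost its call without any array but inflamed replicate 3. Cd3d of the T cell list lost its call without control 1, 2, 3 or 5 or inflamed replicate 3. The smooth muscle gene Des lost its call without control 2 or 5 or any inflamed array. Retnlg of the neutrophil list rose too without inflamed replicate 1 or 3. Of the endothelial genes, Cdh5 rose without inflamed replicate 1 and Emcn fell without replicate 2. None of 6 Hox genes of the distal gut passed, and their list mean ranged from 5.64 to 6.58 on controls and from 5.60 to 6.48 on inflamed arrays, so arrays of both groups differed in this marker of position. The part of these markers in the transporter differences was not tested.

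The arrays were divided at the middle of the range of Xist, a mark of sex, with 3 controls and 1 inflamed array on the high side. Sex was read from Xist alone. The low side held replicates 1 and 2 of each group, so the Xist side went with the replicate number. In a split added after the values were seen, with no test, Abcb1a differed by -1.52 and Abcc4 by 1.28 within the low-Xist arrays (2 against 2). Within the high-Xist arrays (3 against 1) the differences were -2.52 and 1.16. The high-Xist inflamed array was replicate 3, which had the lowest Abcb1a value, so sex and that mouse cannot be told apart. Neither gene's groups overlapped, so the direction within each part was fixed in advance.

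**Figure D4:**
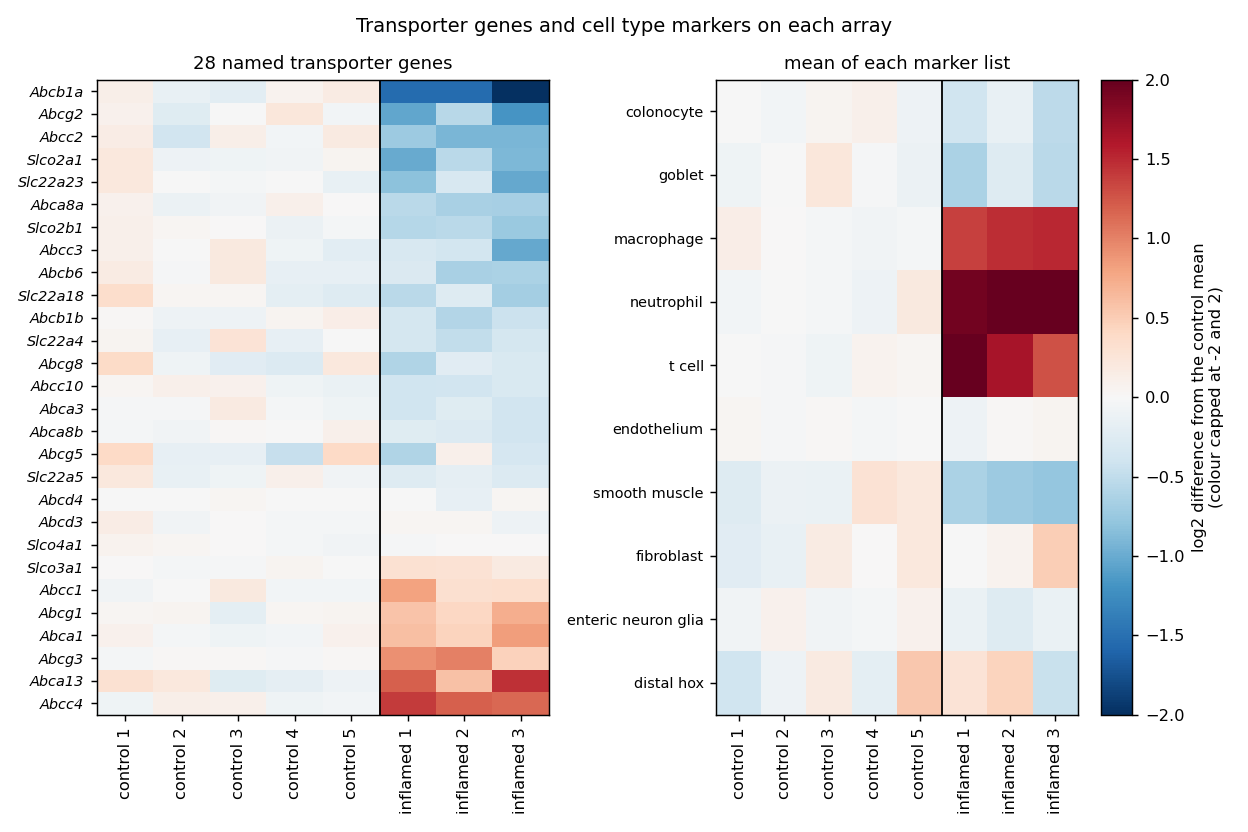
Log2 difference of each array (columns, 5 control and 3 inflamed) from the control mean, as colour capped at -2 and 2, for the 28 named transporter genes (left) and for the mean of each cell type marker list (right). The 13 fallen genes are blue and the 7 risen genes red on all 3 inflamed arrays, the macrophage, neutrophil and T cell lists are red there, and the distal Hox list shows no split between the groups.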

How the data were processed

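RNA from colon tissue of 8 mice was hybridised to Affymetrix arrays, 1 per mouse. The authors deposited log2 intensities per probe set, made with Affymetrix Expression Console and RMA, per the submitters' processing notes; versions, array model and genome build are not stated in the labels, and that the scale is log2 follows from RMA and the values' range. Depth does not apply, and the number of arrays limits precision. Of 72688 probe sets, 65956 transcript clusters were kept and controls left out. Symbols came from the platform annotation, updated through RefSeq (GRCm38.p6), for 31258 probe sets and 30701 genes. The 1492 probe sets with several genes stayed unnamed, and the brightest of several probe sets was used (442 genes, none of them among the transporter genes).

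Groups were compared with limma 3.58.1 in R 4.3.3 (lmFit, eBayes, no covariate). The script was tested on simulated data. Members, lists, motifs and tests were chosen with earlier results of these data known. Named were 20 listed genes (18 measured), up to 6 changed members per family with non-overlapping groups (the 2 largest differences above the median where under 2 passed), and up to 3 changed genes per partner list; other genes in the text were chosen after their values were seen. Some genes of these families are not analysed here. Partner lists held 79 genes, 69 of them measured. Alternatives covered scaling, low values, probe sets, variances, array weights, replicate number, Xist pattern and each array left out.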

Additional observations from a re-analysis of the deposited data

Results flagged for a closer look

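In 4 of 44 named genes the value of control replicate 3 lay far from those of the other 4 controls, with a gap to the nearest control above 0.71 of the group's range. By chance about 1 in 20 groups of untied, normally distributed values would show such a gap. Controls of Abcd4 shared a value, so that rate does not apply to it. Abca3 was at 8.15 there, against a median of 7.94 on the other controls, Abcc1 at 7.42 against 7.17, Abcd4 at 6.4 against 6.36, and Abcg1 at 6.28 against 6.53. Without control replicate 3 the differences were -0.30 for Abca3 (adjusted p = 0.0119), 0.53 for Abcc1 (adjusted p = 0.045), -0.035 for Abcd4 (adjusted p = 0.677) and 0.52 for Abcg1 (adjusted p = 0.00905) in the limma fit.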

How the results depend on the processing

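With 1 array left out at a time, risen members numbered 5 to 8, fallen members 10 to 12, changed named members 15 to 18, changed partner genes 11 to 23 (11 without inflamed replicate 1), members without overlap 28 to 38 and changed genes of all 2510 to 4575 (2510 without inflamed replicate 1). Of the 20 changed members, 14 kept their call in each of these 8 fits, and the other 6 are Abca3, Abca13, Abcb6, Abcc1, Slc22a23 and Slc22a4. The median difference over members was then -0.047 to -0.010, the latter without inflamed replicate 2. With low values set to the median of all genes, 4 members rose, 7 fell, 11 named members and 2333 genes changed, and the median difference was 0; with only genes above the median tested it was -0.17. Under the former, Abca8a, Abca8b, Abcc2 and Abcg3 differed by 0, and Abca13, Abcb6, Abcc1, Slc22a4 and Slc22a23 no longer passed (adjusted p = 0.0538 to 0.343). Among the 20, Slc22a4 was also lost with quantile normalization, array weights, every transcript cluster or the Xist block, Abcc1 with the last pair and Abcb6 with array weights. The labels state no pairing of the arrays. Deviations from the group means correlated at -0.29, -0.053 and 0.069 for replicate numbers 1 to 3, which cannot exclude a pairing. The replicate block left 0 risen, 0 fallen, 0 named members, 0 partner genes and 0 of all genes past limma's threshold, with 21 members and 4918 genes at an unadjusted p under 0.05. Controls 4 and 5 have no inflamed array of the same number, so that fit rests on fewer arrays and has less power. The 20 changed members kept their direction in it, which was fixed in advance because their groups did not overlap. Genes whose sign turned had not passed in any fit: Abcd3 (0.0095 with equal array medians, 0.0048 with array weights, and -0.029 to 0.040 with an array left out, positive without control 1 or inflamed replicate 3), Abcd4 (-0.084 to 0.014, positive without inflamed replicate 2) and Slco4a1 (0.013 with equal array medians, 0.025 with quantile normalization, and -0.021 to 0.016, positive at 0.016, 0.0060 and 0.0067 without control 1, control 2 and inflamed replicate 1). Members that passed under some setting alone were Abcc6 (equal array medians, only genes above the median, without inflamed replicate 3), Abcb10 (the last pair of these), Abcc3 (only genes above the median, Xist block), Slc22a18 (these and array weights), Abca9 and Slco5a1 (array weights, without inflamed replicate 2), and Slc22a7 and Slc22a20 (without inflamed replicate 3). The cause of these shifts was not tested. Overlap was not recomputed where a setting leaves values as they are.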

Other observations

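Neighbouring members did not always share a call. In RefSeq order (GRCm38.p6), Abca8b, Abca8a, Abca9, Abca6 and Abca5 follow each other on chromosome 11, with differences of -0.30, -0.62, -0.15, -0.038 and 0. All 5 were dim, and the first 2 had passed. The carnitine and ergothioneine carrier genes Slc22a5, Slc22a21 and Slc22a4 follow each other on the same chromosome, with differences of -0.23, -0.10 and -0.40, of which the last had passed.

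Values were often identical between arrays. Of the 83 members, 27 (32.5%, against 13.7% of all named genes) had the same value to 5 decimals on at least 5 of 8 arrays, and 6 on all 8, among them Abca5. Only 2 of the 27 were above the median of all genes in either group, and 0 of the 20 changed members were among them.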
